A study of Mus musculus with 188 samples.

Results

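The genes described here encode the proteins of the cytosolic ribosome. They were taken by name: every gene whose only annotated symbol begins with Rpl or Rps and a number, leaving out the Rps6 kinase genes and pseudogenes. The rule found 52 of the 11725 named genes on the array, 30 of the large (60S) subunit, 16 of the small (40S) subunit and 6 paralogs, which are related genes whose products resemble a standard subunit protein. Each gene was represented by the probe set with the highest mean signal among the 88 probe sets of these genes. Levels were measured in the aorta of male mice of 94 inbred and recombinant inbred strains, all aged 16 weeks, on a chow diet and labelled wild-type, on 188 Affymetrix HT_MG-430A arrays. 28 strains were inbred strains, and 28 belonged to the AXB/BXA family (C57BL/6J with A/J), 28 to the BXD family (C57BL/6J with DBA/2J) and 10 to the BXH family (C57BL/6J with C3H/HeJ). Recombinant inbred strains are inbred lines derived from a cross of their parental strains, so each carries a fixed mosaic of both genomes. Among them the names BXD29-Tlr4<lps-2J>/J and BXD24/TyJ-Cep290<rd16>/J include a mutant allele. Most strains (79) had 2 arrays, 9 had 1, 3 had 3 and 3 had 4. Nothing in the labels ties the arrays of 1 strain to different mice, and each p-value therefore measures array-to-array spread, which may be technical.

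A eukaryotic ribosome joins a small subunit, which reads the messenger RNA, to a large subunit, which forms the peptide bonds. Its proteins are made in matched amounts, and their genes are among the most highly expressed in most cells. Their messenger RNAs typically begin with a C followed by a run of pyrimidines, the 5′ terminal oligopyrimidine (TOP) motif, through which mTOR signalling controls their translation. Several of the proteins also have paralogs that are used in particular tissues, such as Rpl3l in striated muscle.

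The start regions of 5 genes whose levels are described in detail later are shown because they let the reader see which of them have the TOP run at the annotated start. The sequences are from RefSeq on GRCm38.p6 and hold the 15 bases before the annotated transcript start and the first 15 bases of the transcript. Capitals mark the annotated first base of the transcript and, where that base is C, the C and T that follow it without a break. Rpl14 lies at chr9:120571502-120571531 on the plus strand, Rpl15 at chr14:18270972-18271001 on the minus strand, Rps6 at chr4:86857353-86857382 on the minus strand, Rpl13 at chr8:123102335-123102364 on the plus strand and Rpl41 at chr10:128549154-128549183 on the minus strand.
Rpl14: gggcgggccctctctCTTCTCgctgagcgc
Rpl15: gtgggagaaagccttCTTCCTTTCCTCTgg
Rps6: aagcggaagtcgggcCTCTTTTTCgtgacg
Rpl13: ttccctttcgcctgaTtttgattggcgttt
Rpl41: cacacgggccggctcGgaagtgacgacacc

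Rpl14, Rpl15 and Rps6 have the run at the annotated start, of 6, 13 and 9 bases. Rpl13 and Rpl41 do not have it at the base annotated there. Start sequences could be matched for 44 of the 52 genes, not for Rpl17, Rpl21, Rpl3, Rpl7, Rpl8, Rps14, Rps20 and Rps29. A start base C followed by at least 4 C or T was found in 7 of the 44 genes (15.9%) and in 3.01% of the 27025 genes listed. The letters CCGGAAG, the core of ETS factor sites, were found on either strand of the 300 bases around the start in 19 of 44 genes (43.2%) and in 9.93% of all listed genes. AAGATGG, which resembles YY1 sites and can share the letters AAG with CCGGAAG, was found in 13.6% of the 44 and 7.28% of all. TATAAA was found in 11.4% and 15.7%. These are matches of letters in a window.

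The values are log2 signals from RMA, which corrects background, makes the arrays' distributions alike and summarises each probe set. They compare a probe set with itself across arrays and do not rank one gene against another. 46 of the 52 genes had a mean log2 signal of at least 5. The other 6, Rpl21, Rpl36a, Rpl39l, Rpl7, Rpl9 and Rps2, were dim, and 5 genes had a mean below the highest array for Xist (4.63), a transcript that males largely lack, so little can be read from them. 14 of the 52 genes (26.9%) were represented by a probe set of the type that can also bind related transcripts, against 2.49% of all named genes. Among these 14, marked _x_at, were Rpl41, Rpl23, Rps13, Rps14, Rps24 and Rps27l, which are described below. Another 6, among them Rpl13, Rpl22 and Rpl36al, had a probe set marked _s_at, whose probes are shared by several transcripts. That type represented 733 of the 11725 named genes. Ribosomal protein genes have many processed pseudogenes, so such signals may hold more than 1 locus. Of 20 genes with several probe sets, 10 were called below, and for 6 of these no other probe set of the gene was called. The array medians lay between 4.55 and 4.88. Markers of the labelled tissue were present: all 8 measured smooth muscle markers and all 9 endothelial markers had means above 5, between 6.34 and 12.4 and between 6.20 and 8.42.

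Whether a gene's level depends on the strain was asked with limma's moderated F test over the 84 strains with at least 2 arrays (177 arrays, without BXD32/TyJ), called at an adjusted p below 0.05 after Benjamini-Hochberg adjustment over all 22327 probe sets. Of the 52 genes, 26 were called (50%), against 46.5% of all probe sets and 48.8% of named genes. Of the array's 22327 probe sets, 11858 had a mean below 5. Among probe sets with a mean of at least 5, 26 of 46 genes were called (56.5%), below the 75.5% of all such probe sets. 15 of 30 large-subunit genes, 9 of 16 small-subunit genes and 2 of 6 paralogs were called. The intraclass correlation, or ICC, gives how much of the variance is found between rather than within strains. It had a median of 0.210 over the 52 genes and 0.182 over all probe sets, and of 0.237 and 0.255 among those with a mean of at least 5. The median SD between strains was 0.116 and within strains 0.228, against 0.170 and 0.325 for all named genes. The median of the mean signals was 10.8 for the 52 genes and 5.28 for all named genes, and the SDs were not compared at like brightness. In bulk tissue a lower level can mean fewer cells of a type or less RNA per cell, and these cannot be told apart here. A signal can also differ between strains whose sequences differ under the probes, which was not tested.

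The count depended on some strains and settings. With the 2 ranges of sample numbers as a covariate, 18 of 52 genes were called (34.6%), beside 42.5% of all probe sets. Without RIIIS/J, 19 of 52 genes were called (36.5%), beside 37.3% of all probe sets. With strains of consecutive sample numbers only, 17 were called (32.7%), beside 30.7%. The sample titles are numbers, whose meaning the labels do not give. Without the 68 arrays whose marker score for thymocytes or for squamous epithelium exceeded 1 (called high-score arrays here), 16 were called (30.8%), beside 34.3%. That setting left 40 strains and 84 arrays in the test, so a call lost in it may reflect fewer arrays.

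**Figure D1:**
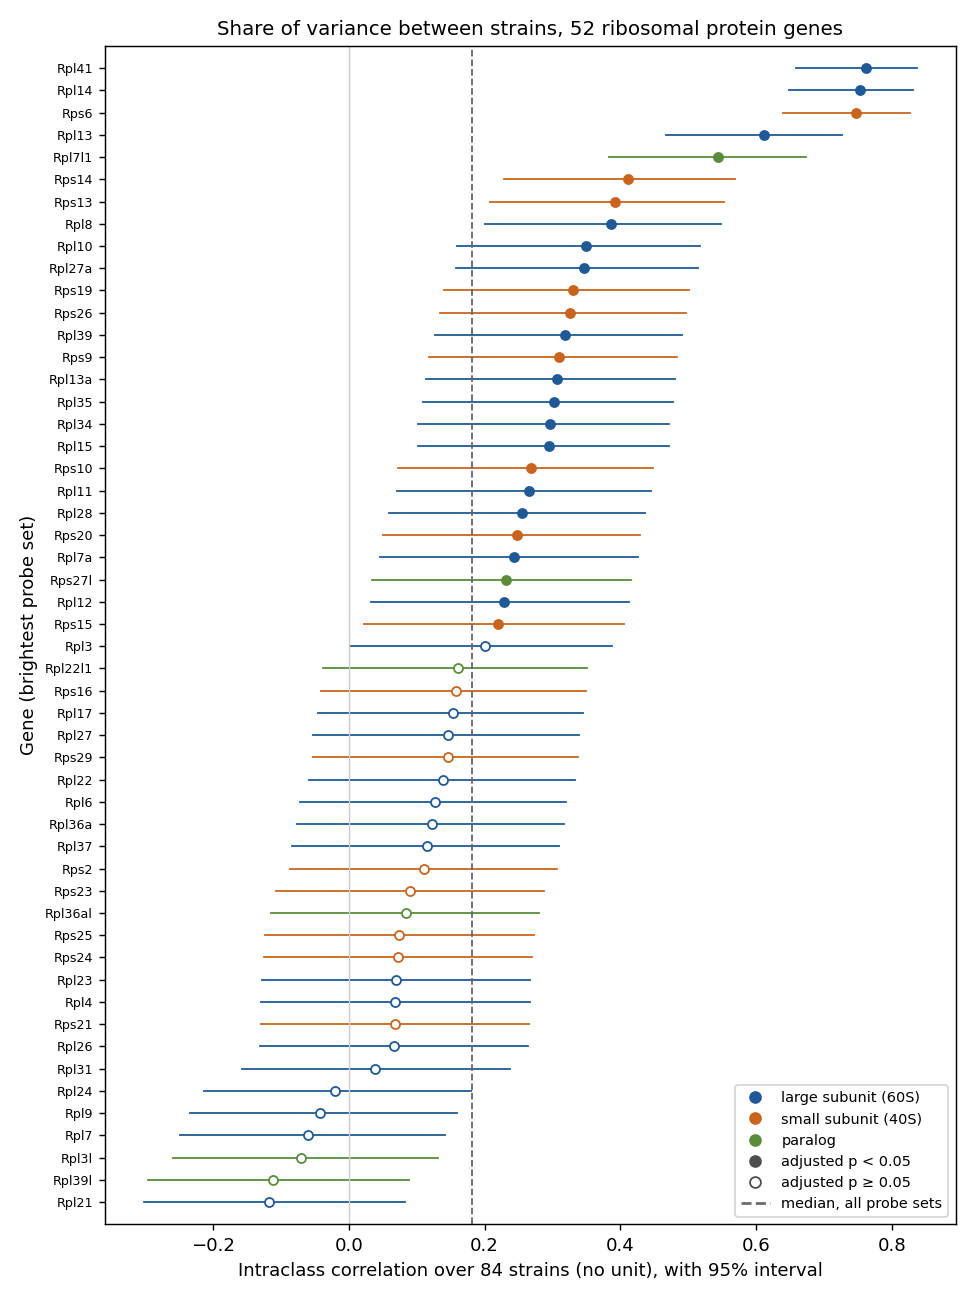
Intraclass correlation over 84 strains (x axis, no unit) for each of the 52 genes (y axis), with its 95% interval as a line. Filled points passed the strain test, colours give the subunit, and the dashed line is the median of all probe sets (0.182). Rpl41, Rpl14, Rps6, Rpl13 and Rpl7l1 lie above 0.5, apart from the others.

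5 of the 52 genes had an ICC above 0.5 (575 of all 11725 named genes did), and each had its own pattern of strains. Among the large-subunit genes, Rpl41, one of the shortest proteins of the ribosome, had the highest ICC (0.761, 95% interval 0.659 to 0.837; limma adjusted p = 6.6e-18). The RIIIS/J arrays read 10.70 and 10.51, and the mean was 10.61 ± 0.14 (SD, n = 2). BTBR T<+> tf/J (9.28 and 10.49), LG/J (9.64 and 10.11), SWR/J (9.98 and 9.66), AKR/J (9.65 and 9.62), LP/J (9.53 and 9.70) and CE/J (9.47 and 9.35) came next. The median of the 28 inbred strain means was 8.52, so these 7 strains stood above most of the panel. No recombinant inbred strain reached their level: the highest strain means were 8.76 in AXB/BXA, 8.83 in BXD and 8.52 in BXH. The probe set used is of the type that can also bind related transcripts, so its pattern may not be that of Rpl41 alone. The other 3 probe sets annotated to Rpl41 were dim (means of 2.80 to 4.20) and were not called.

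Rpl14, a large-subunit protein, split the strains into high and low groups (ICC 0.753, 95% interval 0.648 to 0.831; limma adjusted p = 1.8e-17). Among the 28 inbred strains, 7 had means of 6.24 to 6.56: NON/ShiLtJ, DBA/2J, CBA/J, C58/J, BUB/BnJ, PL/J and AKR/J. The other 21 had means of 3.97 to 5.31, and no strain lay in the gap of 0.93 between these groups. LG/J, the lowest, lay below the highest array for Xist (4.63), so the low levels were close to background. The DBA/2J arrays read 6.08 and 6.50, and the C57BL/6J arrays 5.05, 5.13 and 4.71, with no overlap. In the contrast of DBA/2J with C57BL/6J, Rpl14 was the only one of the 52 genes called, higher by 1.32 ± 0.29 (SE; limma adjusted p = 0.0043), where 0.524% of all probe sets were called in either direction (0.287% higher and 0.237% lower). The 3 parental contrasts of this study share the same C57BL/6J arrays. The call was lost without DBA/2J replicate 2 (a difference of 1.11, adjusted p = 0.40), with the lone array assumed to vary like the other strains. In BXH, from low parents, no strain mean exceeded 5.32.

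The BXD strains, which descend from a low and a high parent, covered both levels of Rpl14. Of 27 strain means, 20 lay below the parental midpoint of 5.63 and 7 above it. BXD39/TyJ (7.09, 1 array), BXD21/TyJ (7.49 and 6.12), BXD2/TyJ (6.39 and 6.76), BXD40/TyJ (6.82 and 6.30), BXD22/TyJ (6.66 and 6.42) and BXD6/TyJ (6.42 and 6.16) were the highest. The strain effect within BXD passed the test (ICC 0.712, limma adjusted p = 0.00031). In AXB/BXA, both of whose parents were low, 27 strain means were 5.17 or less, and BXA16/PgnJ alone was high, with arrays at 6.80, 6.49 and 5.35. There the strain effect missed the threshold (limma adjusted p = 0.053). It passed narrowly with each array centred on its median (adjusted p = 0.047) and with the mean of the probe sets of each gene (adjusted p = 0.049). 4 probe sets annotated to both Rpl14 and the pseudogene Rpl14-ps1 (means of 10.3 to 10.9) showed a smaller difference between DBA/2J and C57BL/6J, of 0.20 to 0.35, and were not called in it by limma. Their correlation with the Rpl14 probe set over the arrays was 0.27 to 0.34. On them BXA16/PgnJ had means of 10.3 to 10.9, close to their means over all arrays.

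Rpl13, a large-subunit protein, was low in A/J and in part of the family derived from it (ICC 0.612, 95% interval 0.467 to 0.727; limma adjusted p = 3.6e-10). The A/J arrays read 8.45 and 8.72 and the C57BL/6J arrays 9.92, 10.12 and 9.26, so the groups did not overlap. The next lowest of the inbred strains had a mean of 9.09. The only probe set of Rpl13 is of the type whose probes are shared by several transcripts, so its pattern may not be that of Rpl13 alone. Rpl13 was the only one of the 52 genes called between A/J and C57BL/6J, lower in A/J by 1.18 on the log2 scale (difference -1.18 ± 0.30, SE; limma adjusted p = 0.027), where 0.645% of all probe sets were called (0.376% lower in A/J). Leaving out C57BL/6J replicate 1, C57BL/6J replicate 2, A/J replicate 1 or A/J replicate 2 each ended the call (differences of -1.10, -1.002, -1.04 and -1.31; adjusted p from 0.11 to 0.65), as did centring each array on its median (adjusted p = 0.059). Over all 52 genes the median difference was -0.17, with 13 above 0, beside -0.03 for all named genes.

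Within AXB/BXA the strain effect on Rpl13 passed the test (ICC 0.549, 95% interval 0.252 to 0.759; limma adjusted p = 0.010). 13 of 28 strain means lay below the parental midpoint of 9.18 and 15 above it. AXB19a/PgnJ was lowest, with arrays that differed widely from each other (6.69 and 8.87). AXB24/PgnJ, BXA11/PgnJ and AXB19/PgnJ lay beside it, with means of 7.98, 8.13 and 8.20, below the A/J mean of 8.59. Rpl13 was also called within BXD (ICC 0.689, limma adjusted p = 0.0056), over a narrower range of strain means, 9.26 to 9.95, between parents at 9.88 (DBA/2J) and 9.77 (C57BL/6J). Without the high-score arrays that call was lost.

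Rpl15, a large-subunit protein, varied between strains but also between arrays of 1 strain (ICC 0.295; limma adjusted p = 0.0044; SD within strains 0.68). The C57BL/6J arrays read 5.83, 4.50 and 6.25 and the C3H/HeJ arrays 7.28 and 7.40, without overlap. The difference of 1.81 ± 0.61 (SE) did not pass the test (limma adjusted p = 0.14). It was called without C57BL/6J replicate 3 (a difference of 2.17, adjusted p = 0.038) and without the high-score arrays (adjusted p = 0.021). In the contrast of C3H/HeJ with C57BL/6J, 0 of the 52 genes were called by limma (4 at an unadjusted p below 0.05), where 1.25% of all probe sets were called. Within BXD, Rpl15 was called (ICC 0.552, limma adjusted p = 0.011), but not with BXD32/TyJ included.

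**Figure D2:**
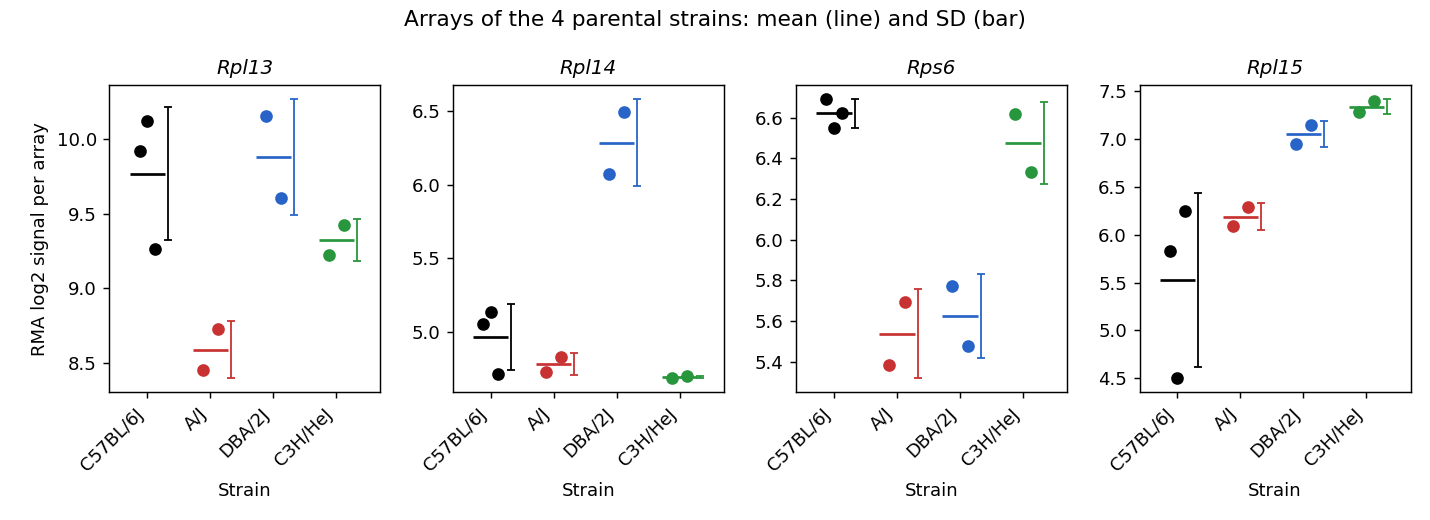
Log2 signal of Rpl13, Rpl14, Rps6 and Rpl15 (y axes) on each array of C57BL/6J (3 arrays) and of A/J, DBA/2J and C3H/HeJ (2 each). Points are arrays, lines are means and bars are the SD. A/J lies below C57BL/6J for Rpl13, DBA/2J above it for Rpl14, and both A/J and DBA/2J below it for Rps6.

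Rps6, the small-subunit protein phosphorylated by S6 kinase downstream of mTOR, was the small-subunit gene that varied most by strain (ICC 0.747, 95% interval 0.640 to 0.826; limma adjusted p = 4.5e-17). The C57BL/6J arrays read 6.69, 6.55 and 6.63 and the C3H/HeJ arrays 6.62 and 6.34, while the A/J arrays read 5.38 and 5.69 and the DBA/2J arrays 5.77 and 5.48. The low and high parents did not overlap. The differences from C57BL/6J were -1.08 ± 0.29 (SE; limma adjusted p = 0.056) in A/J and -0.996 ± 0.29 (adjusted p = 0.13) in DBA/2J, both short of the threshold. The A/J difference passed it in 5 alternatives, for example with each array centred on its median (adjusted p = 0.035) and without C57L/J replicate 1 (adjusted p = 0.030). The second Rps6 probe set was dim (mean 3.43) and was not called.

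The strain effect on Rps6 was called within AXB/BXA (ICC 0.738, limma adjusted p = 3.1e-05) and within BXD (ICC 0.723, adjusted p = 0.00026), the families with 1 low parent. In BXD, 11 strain means lay at or below 5.71 and 16 at or above 6.26, on either side of the parental midpoint of 6.12. In AXB/BXA, 17 lay below the midpoint of 6.08 and 11 above, with the lowest mean 4.96 in AXB5/PgnJ and the highest 6.85 in BXA16/PgnJ. Of the lines with like names, AXB19/PgnJ (6.39 and 6.51) and AXB19a/PgnJ (6.65 and 6.63) were high, and AXB19b/PgnJ was low on each of its 4 arrays (5.32, 5.35, 4.84 and 5.16). In BXH, whose parents were both high, 9 of 10 strain means were 6.21 or more, and BXH2/TyJ lay at 5.85. Without the high-score arrays, the AXB/BXA call for Rps6 was lost (ICC 0.558, limma adjusted p = 0.23). In that setting 1.03% of all probe sets were called within AXB/BXA, beside 3.81% with all arrays.

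**Figure D3:**
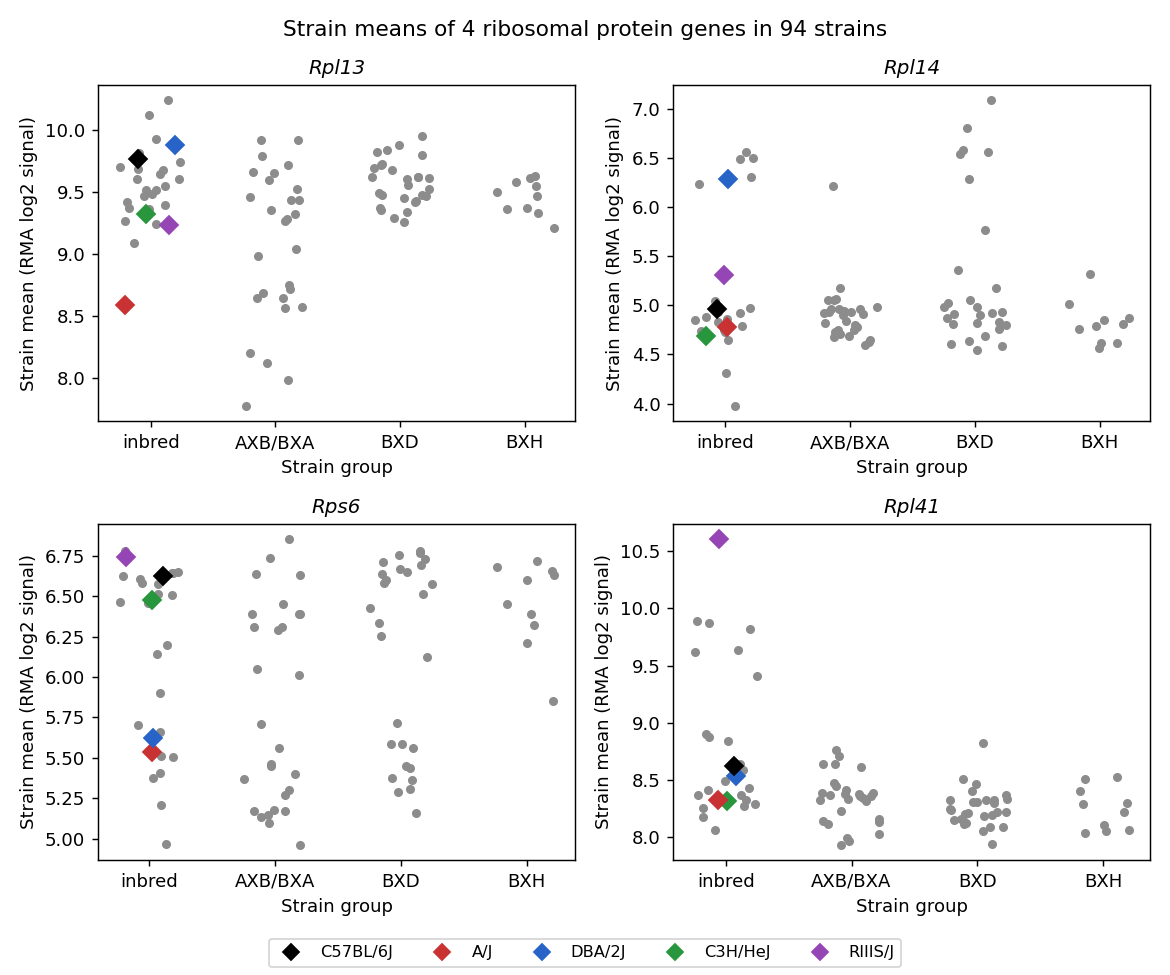
Mean log2 signal per strain (y axes) of Rpl13, Rpl14, Rps6 and Rpl41 in the inbred strains and the 3 recombinant inbred families (x axes; points are spread sideways only for legibility). Diamonds mark the parents and RIIIS/J. Rpl14 splits in BXD, Rps6 in AXB/BXA and BXD, Rpl13 spreads downward in AXB/BXA, and the high Rpl41 levels lie among inbred strains.

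In all, 2 of the 52 genes were called within AXB/BXA (Rps6 and Rpl13), beside 3.81% of all probe sets. Within BXD 6 were called (Rps6, Rpl14, Rpl13, Rpl15, Rpl13a and Rpl7l1), beside 15.1%. Without the high-score arrays the BXD calls of Rpl13, Rpl13a and Rpl7l1 were lost, where 5.29% of all probe sets were called. With BXD32/TyJ included those of Rpl15 and Rpl13a were lost, where 7.29% were called. Within BXH limma called 0 (2 at an unadjusted p below 0.05), beside 1.26%. These shares of the genes lie close to or below those of the array.

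The other small-subunit genes with high ICC were Rps14 (0.411), which is needed for small-subunit assembly, and Rps13 (0.392). Rps14 was highest in RIIIS/J (12.64 and 12.76) and lowest in AXB8/PgnJ (11.17 and 11.18). Rps13 was also highest in RIIIS/J (11.42 and 11.14) and lowest in AXB8/PgnJ (9.54 and 10.10). The probe sets of both genes are of the type that can also bind related transcripts. Of the large-subunit genes, Rpl8 (ICC 0.386), a protein near the peptidyl transferase centre, Rpl10 (0.349), a late-joining protein, and Rpl27a (0.347) were highest in the same strain. Rps19, Rps26, Rps10 and Rpl11 were called with ICC values of 0.331, 0.326, 0.268 and 0.266, all highest in RIIIS/J as well. The call of Rpl11 was lost without RIIIS/J and in 5 other alternatives, and that of Rps10 with the covariate for sample numbers, with consecutive numbers only and without the high-score arrays. Without the high-score arrays the calls of Rps13 and Rpl10 were lost too.

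RIIIS/J stood at the top of the panel for most of the genes. Its strain mean was the highest of the 84 for 38 of 52 genes (73.1%), where it was the highest for 13.9% of named genes. Its median difference from the panel's median was 0.54. The mitochondrial ribosomal protein genes, a separate nuclear-encoded set, lay the other way: RIIIS/J was the lowest of the 84 for 18 of 70 (25.7%), with a median difference of -0.42. Over all named genes it was the lowest for 1583 of 11725, with a median difference of -0.08. Of 14 translation factor genes 7 were highest in RIIIS/J, and of 27 ribosome biogenesis genes 9. These comparisons were not tested.

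Other measures also stood apart on both RIIIS/J arrays. Their thymocyte scores, the mean log2 level of 9 thymocyte markers centred over the arrays, were 4.24 and 4.44, the highest of the 188 (median -0.69). Their endothelial scores, over 9 markers of that cell type, were -1.29 and -1.43, the lowest. 36 arrays were above 1 on the thymocyte score, among them the arrays next highest in the mean of the 52 genes, BXA7/PgnJ replicate 2 (mean 0.42, thymocyte score 3.98) and BXH9/TyJ replicate 1 (0.41 and 4.18). The part of these cells in the levels was not tested. At the other end, AXB8/PgnJ was the lowest strain for 8 of 52 genes (15.4%) and for 1.09% of all named genes, with thymocyte scores of -0.98 and -0.58. BXD28/TyJ was the lowest for 6 (11.5%) and for 1.03% of all named genes. Both strains were named because they were most often lowest among the 26 called genes (7 and 6). BXA8/PgnJ was the lowest for Rpl3, Rpl4, Rpl6, Rpl17, Rpl22l1, Rpl24, Rpl36a and Rpl37, none of them called. Its arrays differed widely in Rpl4 (SD 1.65) and Rpl3 (SD 0.84), and its share of all named genes was not counted.

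Over the 188 arrays the mean of the 52 genes, each centred on its own mean, ran from -0.36 (AXB6/PgnJ replicate 2) to 0.51 (RIIIS/J replicate 1), with an SD of 0.16. As a description across arrays, which share strains and processing, it had a Pearson correlation of 0.71 with the array median (Spearman 0.71) and of -0.66 with the endothelial score (Spearman -0.55). The correlations with the brown adipocyte, thymocyte and squamous epithelium scores were -0.50, 0.43 and 0.42. Without the high-score arrays, over 120 arrays, the endothelial value was -0.39, the thymocyte value 0.30 and the squamous value -0.06. Within strains the endothelial correlation was -0.76. In the 2 ranges of sample numbers it was -0.72 and -0.57. The part of these cell types in the level of the genes was not tested.

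The genes varied together to differing degrees. For the 41 standard subunit genes with a mean of at least 5, the median Pearson correlation over pairs was 0.51 over the 188 arrays, beside 0.38 for the 70 mitochondrial ribosomal protein genes and 0.004 for all named genes with such a mean. It was 0.40 with each array centred on its median, 0.49 within strains and 0.38 without the high-score arrays. Over all 52 genes it was 0.25. Of the 5 genes with an ICC above 0.5, Rpl41 had a median correlation with the other genes of 0.23, Rpl14 of 0.08, Rps6 of 0.10, Rpl13 of -0.01 and Rpl7l1 of -0.05.

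Within this common pattern lay 2 sets of genes that were close among themselves and not to each other, a division chosen after the values were seen. Rps10 and Rpl8 had the highest correlation of all pairs (0.92, and 0.92 within strains), and Rps10 with Rps15 had 0.85. Rpl4, a large-subunit protein whose extension lines the exit tunnel, had a correlation of 0.92 with Rpl23 and of 0.90 with the paralog Rpl36al. Between the sets the values were -0.10 for Rps10 with Rpl4 and -0.28 for Rps10 with Rpl23. The sets differed in their relation to the signal difference between the 3′ and 5′ probe sets of the actin control, a measure of RNA integrity and labelling. The correlation was -0.74 for Rps10, -0.65 for Rpl8 and -0.40 for Rps15. In the other set it was 0.31 for Rpl23 but only 0.11 for Rpl36al and 0.10 for Rpl4. Rps24 and Rpl15 were not placed in either set here, though their correlations with Rpl23 were 0.875 and 0.795. Their actin values were 0.30 each. The same difference for the Gapdh control did not separate the sets. Its correlation was -0.24 for Rps10, -0.13 for Rpl8 and 0.17 for Rps15. In the other set it was 0.10 for Rpl23, -0.05 for Rpl36al and -0.08 for Rpl4. The array median had a correlation of 0.20 with Rps10 and 0.82 with Rpl4. The part of RNA quality in the division was not tested.

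**Figure D4:**
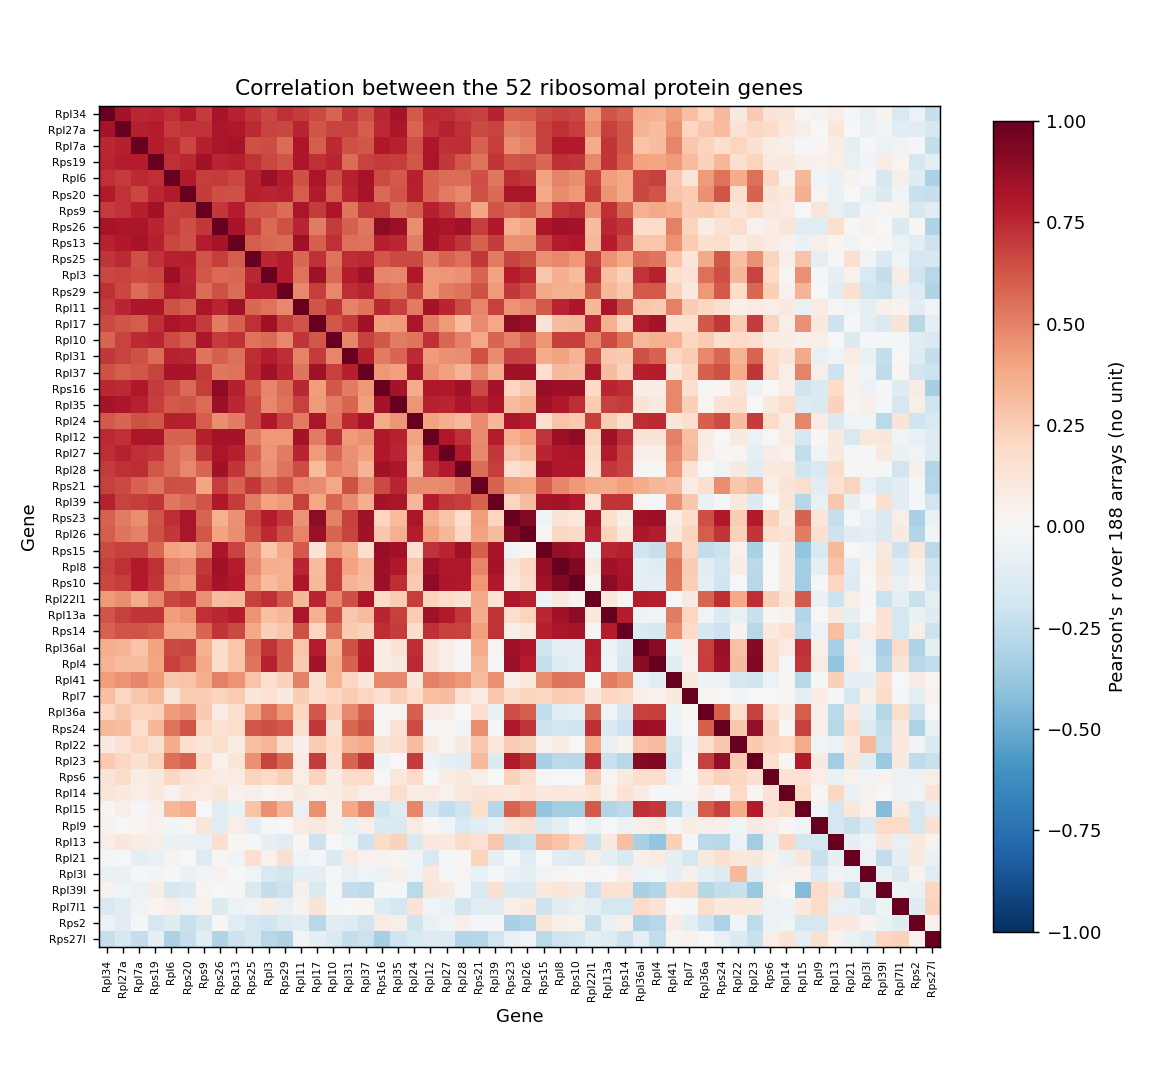
Pearson's r over 188 arrays (colour, no unit) for each pair of the 52 genes (both axes), ordered from top left by the median correlation with the others. Most standard subunit genes are red (positive) against each other. Rps10, Rpl8 and Rps15 are pale or light blue against Rpl4, Rpl23 and Rpl36al, and Rpl14, Rps6 and Rpl3l are pale against nearly all.

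Of the paralogs, Rpl7l1, a relative of Rpl7, had the highest ICC (0.543, 95% interval 0.383 to 0.674; limma adjusted p = 1.3e-07). C58/J was lowest, at 6.08 and 5.75. AXB1/PgnJ (6.54 and 6.24) and BXD42/TyJ (6.61 and 6.15) were low in their families, each apart from the next strain by 0.60 and 0.43. Parents of both families were higher, at 7.06 to 7.22. Rps27l, a p53-induced relative of Rps27, was called with an ICC of 0.232 (limma adjusted p = 0.030). The call was lost without C57BL/6J replicate 1 (adjusted p = 0.056), without C57BL/6J replicate 2 (0.055) and in 3 other alternatives. Rpl22l1, Rpl36al and Rpl39l were not called (ICC 0.160, 0.084 and -0.111). Rpl22, Rpl36a and Rpl39, the standard genes beside them, had ICC values of 0.139, 0.122 and 0.319, and Rpl39 alone of these was called (limma adjusted p = 0.0036).

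Rpl3l, the muscle-specific relative of Rpl3, had the widest range over the arrays of all 52 genes, 2.95 to 9.42, and no detectable strain effect (ICC -0.070, 95% interval -0.258 to 0.131; limma adjusted p = 0.78). In BXD42/TyJ the arrays read 9.42 and 3.58, and in BXD21/TyJ 8.13 and 4.30, so 2 arrays of 1 strain could lie at opposite ends. Over the 79 strains with 2 arrays, the difference between arrays in Rpl3l followed the difference in the score of 12 skeletal muscle markers (Pearson r = 0.89, Spearman rho = 0.90, permutation p = 1e-05 each, two-sided and the smallest that the permutations can give; 0.00011 after Benjamini-Hochberg adjustment over 11 genes). The signs were the same in 70 of 79 strains. Without the 2 farthest strains r was 0.87, and in the 2 ranges of sample numbers 0.88 (39 strains) and 0.90 (40 strains). In BXD42/TyJ the muscle scores were 4.51 and -3.85.

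The standard gene Rpl3 did not follow the muscle score detectably (r = -0.15, rho = -0.12, permutation p = 0.20, adjusted p = 0.74). Rpl22 had a weaker relation (r = 0.31, adjusted permutation p = 0.030; rho = 0.25, adjusted p = 0.14). The other 9 of the 11 paralogs and like-named standard genes, Rpl3 included, had adjusted permutation p-values of 0.74 or more for r.

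**Figure D5:**
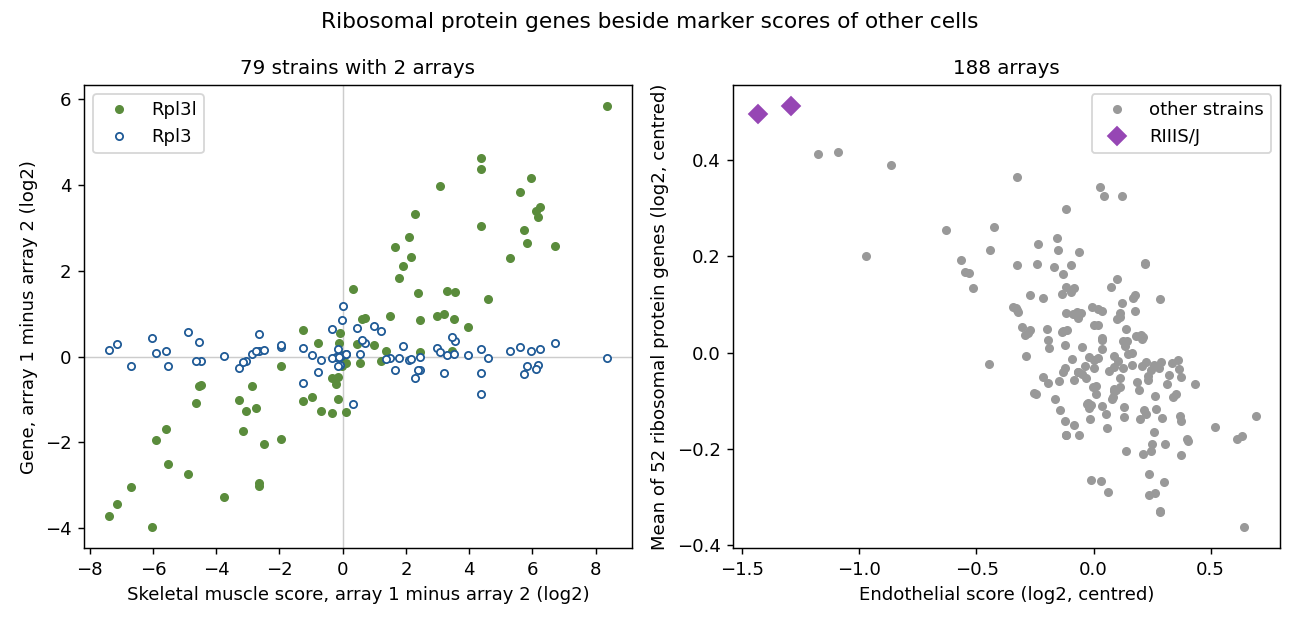
Left: difference between the 2 arrays of a strain in Rpl3l (filled) and Rpl3 (open) on the y axis, against the difference in the skeletal muscle marker score on the x axis (log2 units), 79 strains. Right: mean of the 52 genes (y axis) against the endothelial marker score (x axis), both log2 and centred, 188 arrays. Rpl3l rises with the muscle score and Rpl3 stays near 0, and the RIIIS/J arrays are highest in the ribosomal genes and lowest in the endothelial score.

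Genes of related function gave the following counts in the strain test, where 46.5% of all probe sets and 75.5% of those with a mean of at least 5 were called. 61 of 70 mitochondrial ribosomal protein genes, all with such a mean, were called (87.1%; median ICC 0.321), led by Mrpl3 (ICC 0.643, highest in CBA/J at 9.33 and lowest in BXD8/TyJ at 7.81) and Mrpl30 (0.525, lowest in RIIIS/J at 8.45). 19 of 27 ribosome biogenesis genes were called (70.4%; median ICC 0.231), among them Polr1b, a subunit of RNA polymerase I (0.390), and Pes1, a factor of large-subunit processing (0.373). Polr1b was dim (mean 4.59), so little can be read from it. 8 of 14 translation factors and other TOP messenger RNAs were called (57.1%), led by Eif3l (0.626, lowest in C57L/J at 9.28), Eif3f (0.352) and Eef1g (0.325). Of the ribosomal genes outside the naming rule, Fau was called (ICC 0.212, limma adjusted p = 0.040), with its highest mean in RIIIS/J (12.1), and Rplp2 was not (0.229, adjusted p = 0.063). The dim Rpsa signal (mean 3.18) was not called. Within BXD 28 of 70 mitochondrial genes were called, beside the 6 of 52 cytosolic ones, 15.1% of all probe sets and 31.6% of those with a mean of at least 5.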

How the data were processed

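RNA from mouse aorta was hybridised to Affymetrix HT_MG-430A arrays, 1 per sample. The deposited values are log2 signals made with RMA, and GCOS is also named, per the submitters' processing notes; the sources used here give no versions. Of 22416 probe sets, 89 controls were left out. Probe sets were named through GEO's platform annotation and RefSeq: 17783 had 1 symbol, 284 several and 4260 were not listed. Strains came from the labels. BXD32/TyJ, whose descriptions carry an unexplained suffix, was left out of the tests. Limma 3.58.1 in R 4.3.3 fitted strain as the only term. Parental contrasts shared the spread of 186 arrays (93 residual degrees of freedom). The ICC and its 95% interval came from one-way variance components. Marker scores are means of log2 values centred per probe set. The tests were tested on simulated data. Members and lists were chosen with earlier results of these data known. Genes named: the 10 largest and 5 smallest ICC, those called between parents, the 3 largest SDs between strains in each family, genes whose probe sets gave called contrasts of opposite sign (none did), paralogs and their like-named genes, and up to 4 per related list by ICC. Others named (Rps10, Rps15, Rps19, Rps26, Rpl11, Rpl4, Rpl23, Rpl13a) were chosen after their values were seen. Alternatives are given in the closing section. The number of arrays limits the precision.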

Additional observations from a re-analysis of the deposited data

Results flagged for a closer look

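In strains with 4 arrays (AXB19b/PgnJ, BXD19/TyJ and BXH4/TyJ), 72 sets of 4 values were examined for an array far from the others. In 1 of them, Rpl7 in BXH4/TyJ, the lowest array read 2.87, the next 2.99 and the highest 3.01, so the gap to the nearest array was 0.87 of the range. Rpl7 was dim, and chance alone sets apart about 1 in 20 such groups.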

How the results depend on the processing

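The count of 26 genes with a strain effect became 16 without the high-score arrays and 17 with strains of consecutive sample numbers only; the settings have fewer strains. It was 18 (34.6%, beside 42.5% of all probe sets) with the block of sample numbers, 19 without RIIIS/J, and 26 to 28 with centring, the brightness filter (56.5%, beside 75.5%), means of probe sets, BXD32/TyJ included or scores as covariates. Leaving out 1 array of a parent or of C57L/J gave 25 to 27. Between A/J and C57BL/6J the count was 2 with the brightness filter, with scores as covariates and without high-score arrays, and 0 to 2 on leaving out 1 array. It was 0 to 1 for DBA/2J on leaving out 1 array, and for C3H/HeJ 1 without high-score arrays and 0 to 1 on leaving out 1. Within AXB/BXA it was 1 without high-score arrays. Within BXD it was 10 with scores as covariates and 3 without high-score arrays; BXH stayed at 0. Of the values for named genes, 518 kept their call and direction, 15 fell below and 11 rose past the threshold, 2 values without a test moved (the median correlation of 41 genes, to 0.40 with centring and 0.38 without high-score arrays), and none reversed; the cause was not tested. The block could not be fitted within BXD. BXD32/TyJ concerns no other family. Chosen after seeing the data, alternatives for Rpl3l and muscle gave r of 0.89 to 0.91. No paired analysis was possible because replicate numbers follow accession order and pair no arrays across strains.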
